A study of Mus musculus with 12 samples.

Results

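The libraries hold RNA of naive mouse CD4+ T cells, helper T cells that have not yet met antigen, activated in vitro by antibodies against CD3 and CD28, which stand in for the antigen and costimulatory signals. The comparison described is that of cells lacking Keap1 (KKO) with wild-type (WT) cells at 24 h of activation. It was taken by the column names of the count table, which give 3 KKO and 3 WT libraries of that time, 6 of the 12 libraries in all. The other 6 libraries, 3 KKO and 3 WT at 48 h, entered the same fit and are used where the effects at the 2 times are set side by side. The labels name no strain, age, sex, deletion method, deleted exons or T cell subset beyond naive CD4+, and do not say whether replicates came from separate mice or cultures, so the p-values measure the spread between these libraries, which may be in part technical.

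Totals at 24 h were 27393049 to 32607684 expected counts in WT and 23700071 to 28419276 in KKO, and every pair of replicates differed by more than counting noise. Each group held cells of both sexes, and not in the same proportion: WT replicates 1 and 2 and KKO replicate 2 held Xist, WT replicate 3 and KKO replicate 3 held Y-linked transcripts, and KKO replicate 1 held both (Xist at 76.2 CPM, counts per M of scaled library size, and the Y-linked genes at 125 CPM). The first principal component of the 6 libraries carried 32.2% of the variance and did not part the genotypes cleanly: KKO replicate 2 stood at -5.21 and WT replicate 3 at -0.727, between the other WT libraries (-20.3 and -20.1) and the other KKO libraries (19.2 and 27.1). Gene counts are therefore also given with KKO replicate 1 of 24 h and KKO replicate 3 of 48 h, the 2 libraries of mixed sex reading, left out. Of 12 tested markers of CD4 T cells, Thy1 was called higher and the rest were not called in the fit of all 12 libraries. The list leaned the other way, with a median log2 fold change of -0.12 and 2 of 12 above 0. Of the 12, 7 had an unadjusted p under 0.05, as had 1474 of all 13196 tested genes. DESeq2 and a fit of the 24 h libraries alone each called 3 lower. Their summed level was 3554 to 3692 CPM in WT and 3386 to 3491 CPM in KKO. Genes of the labelled cell type were thus present in each library.

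KEAP1 is the adaptor of a ubiquitin ligase that holds the transcription factor NRF2 (gene Nfe2l2) and sends it for destruction. Electrophiles and oxidants, or loss of KEAP1, let NRF2 accumulate, pair with small MAF proteins and bind antioxidant response elements beside genes of quinone reduction, thioredoxin and glutathione cycling, NADPH supply, iron storage and drug export. NRF2 is controlled mainly at the level of the protein, so its own mRNA need not change. In T cells these systems set how much reactive oxygen is present while the cells grow, divide and choose a cytokine program.

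Keap1 was low in every KKO library. On chromosome 9 at 21229730 to 21239332 (build mm10), it read 106, 109 and 106 CPM in WT and 16.5, 15.7 and 17.5 CPM in KKO. The groups lay far apart, a log2 difference of -2.69 ± 0.06 (SE, edgeR adjusted p = 6.31e-13), so the labels of all 6 libraries matched the targeted gene. Nfe2l2 stayed between 28.3 and 29.6 CPM in all 6 libraries, at -0.01 ± 0.06 on the log2 scale (SE, adjusted p = 0.999). Of the 13 tested genes of the KEAP1 and NRF2 core, meaning the adaptor, NRF2 and its relatives, their partners and their competitors, Keap1 fell and Mafg rose. Mafg, a small MAF partner of NRF2, read 25, 23 and 20.9 CPM in WT and 29.5, 30.9 and 33.0 CPM in KKO, 0.44 ± 0.08 higher on the log2 scale (SE, adjusted p = 0.00789). The call of Mafg was lost without any one of WT replicate 2, WT replicate 3 or KKO replicate 3 (adjusted p up to 0.057). The partners Mafk (-0.04) and Maff (0.20), the competitor Bach1 (0.07) and the KEAP1-binding autophagy receptor Sqstm1 (0.24, adjusted p = 0.0885) were not called, as log2 fold changes.

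In all, 307 of 13196 tested genes were called at an adjusted p under 0.05, which is 2.33% of them. There were 250 higher in KKO (1.89%) and 57 lower (0.432%). Counts of calls in the gene lists below are to be read against these shares. The median log2 fold change over all tested genes was -0.00416, and 48.4% of them lay above 0. Among the higher genes the median was 0.68 and 69 reached 2-fold, while among the lower genes it was -0.40 and 2 reached 2-fold. All KKO libraries lay on one side of all WT libraries for each of the 307, but that was also so for 19.4% of all tested genes. KKO replicate 2, the one with Xist alone, was the KKO library nearest to WT for 177 of the 250 higher genes (70.8%) and 26 of the 57 lower (45.6%). The calls were not equally firm: 69 of the higher and 14 of the lower genes were called in each of 23 other fits, which changed the scaling, tool, filter or libraries. Without the 2 libraries of mixed sex reading there were 107 calls, 88 higher and 19 lower. Single libraries also moved the count: leaving out WT replicate 2 gave 138, WT replicate 3 gave 152, KKO replicate 1 gave 176, KKO replicate 3 gave 131, and KKO replicate 2 of 48 h gave 504.

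**Figure D1:**
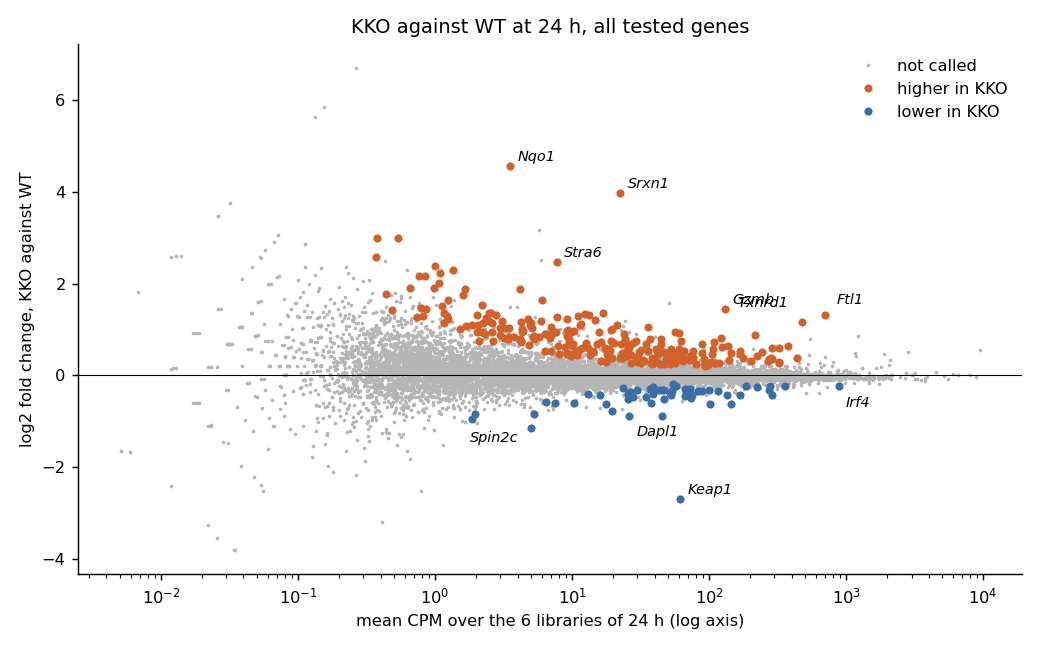
Log2 fold change of KKO against WT at 24 h (y axis) against the mean CPM of the 6 libraries (x axis, log scale) for the 13196 tested genes; grey points were not called, orange were higher and blue lower in KKO. Nqo1 and Srxn1 stand apart at the top and Keap1 at the bottom, and most called genes lie above 0.

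The largest rises were in quinone and thioredoxin reduction. Nqo1, the quinone reductase that is a classic NRF2 target, read 0.25, 0.308 and 0.286 CPM in WT and 7.01, 6.32 and 7.07 CPM in KKO, 23.7-fold higher (log2 fold change 4.56 ± 0.20 SE, adjusted p = 3.21e-09). It was close to absent in WT and present in every KKO library. Srxn1 encodes sulfiredoxin, which repairs over-oxidised peroxiredoxins, and read 2.54, 2.86 and 2.71 CPM against 44.5, 39.1 and 43.6 CPM, 15.6-fold higher (log2 fold change 3.97 ± 0.09 SE, adjusted p = 6.31e-13). Txnrd1, the cytosolic thioredoxin reductase, read 288, 291 and 300 CPM against 688, 629 and 657 CPM (log2 fold change 1.17 ± 0.07 SE, adjusted p = 2.34e-07). Its substrate thioredoxin, Txn1, went from 220, 232 and 242 CPM to 376, 315 and 356 CPM (0.59 ± 0.07 SE, adjusted p = 0.000348). In all 4 genes the groups were well separated, and the call held in each of the 23 other fits. These were 4 of 18 tested members of the thioredoxin, peroxiredoxin and quinone list, none fell, and the list's median was 0.03, so most of its members were near the value of all genes. Prdx1, a cytosolic peroxiredoxin, had a log2 fold change of 0.11 (adjusted p = 0.773).

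Glutathione genes followed with smaller sizes. Gclc, the catalytic subunit of the enzyme that starts glutathione synthesis, read 46.5, 46.7 and 47.6 CPM in WT and 77.2, 81.3 and 77.3 CPM in KKO (log2 fold change 0.74 ± 0.06 SE, adjusted p = 4.34e-06). Gsr, which returns oxidised glutathione to its reduced form, read 95.9, 97.8 and 102 CPM against 160, 138 and 155 CPM (0.62 ± 0.06 SE, adjusted p = 2.06e-05). Esd, an esterase that frees glutathione from its formaldehyde adduct, rose by 0.68 ± 0.07 (SE, adjusted p = 8.35e-05). The call of each of the 3 held in all 23 other fits. These 3 were the calls among 18 tested members, whose median was 0.23 with 16 above 0. The partner subunit Gclm read 33.6, 39.2 and 37.9 CPM against 45.1, 42.3 and 46.3 CPM and was not called (0.27, adjusted p = 0.147), nor was the cystine importer Slc7a11 (0.33, adjusted p = 0.156). Catalase, Cat, lies outside these lists and was chosen after its values were seen: it read 46.2, 48.1 and 51.7 CPM in WT and 67.4, 62.3 and 64.5 CPM in KKO (0.41 ± 0.06 SE, adjusted p = 0.000956), and it was called in all 23 other fits.

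NADPH supply and iron storage each had 1 leading gene. G6pdx, the enzyme that commits glucose 6-phosphate to the pentose phosphate pathway, read 86.2, 89.5 and 92.0 CPM in WT and 166, 149 and 157 CPM in KKO (log2 fold change 0.82 ± 0.06 SE, adjusted p = 2.19e-06). H6pd, its counterpart in the endoplasmic reticulum (0.40), and Taldo1, the transaldolase of the non-oxidative arm (0.27), were the other 2 calls among 19 tested members (median 0.06). Without the mixed libraries G6pdx alone of these was called. Tkt (0.06) and Pgd (0.07), which work in the same pathway, were not called, and the malic enzyme gene Me1 had a large but imprecise value of 2.08 ± 0.53 (SE, adjusted p = 0.056) on levels of 0.0357 to 0.179 CPM in WT and 0.411 to 0.608 CPM in KKO. Of iron and heme genes, Ftl1, the ferritin light chain, read 381, 410 and 421 CPM against 1100, 919 and 1010 CPM (1.32 ± 0.07 SE, adjusted p = 7.14e-08). The heavy chain gene Fth1 had 0.37 ± 0.09 (SE, adjusted p = 0.0495), at the edge of the threshold, and lost its call without any one of WT replicates 1, 2 or 3, KKO replicates 1 or 3, WT replicate 2 of 48 h or KKO replicate 3 of 48 h (adjusted p up to 0.20). Those 2 were the calls among 24 tested members (median 0.03), and the heme oxygenase gene Hmox1 was not called (0.50, adjusted p = 0.149). Among conjugation and export genes 2 of 25 tested members rose, the glutathione conjugate pump Abcc1 (0.30) and Gsto1 (0.33), and without the mixed libraries neither did; another 17 members of that list, among them Gsta1 to Gsta4 and Aldh3a1, did not pass the low-count filter. Over all 6 of these lists, 15 of 117 tested members rose and 1 fell. Their joint median was 0.03.

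**Figure D2:**
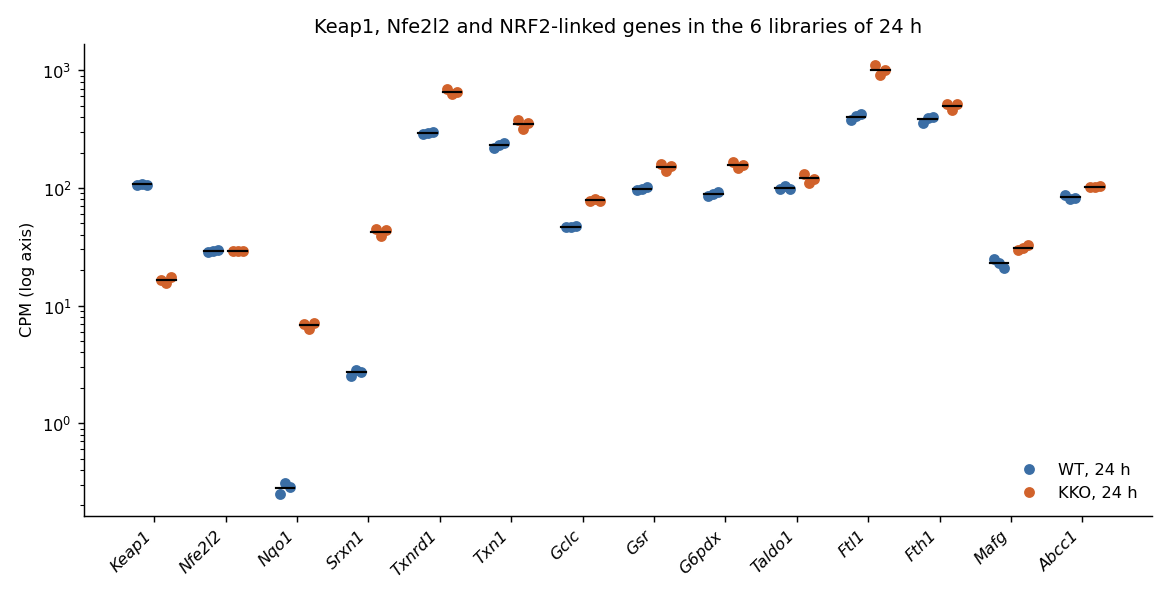
CPM (y axis, log scale) of Keap1, Nfe2l2 and 12 genes of the oxidative lists in the 3 WT (blue) and 3 KKO (orange) libraries of 24 h; points are libraries and bars are means. Keap1 is low in all KKO libraries, Nfe2l2 lies level, and the other 12 genes are higher in all KKO libraries.

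Promoter windows were read for the core of the antioxidant response element, TGACNNNGC, on both strands. The windows are RefSeq's, build GRCm38.p6, and reach from 250 bases before to 50 after a transcript start. Of the 15 oxidative genes that rose, 12 had a window and 4 of them held the core, which is 33.3%. Of all tested members of the 6 oxidative lists, 96 had a window and 18 of them held it, which is 18.8%. The shares were 24.4% of the higher genes (47 of 193), 13.6% of the lower genes (6 of 44) and 16.9% of all tested genes with a window (1671 of 9873). Over all 32851 windows the share was 12.4%. The AP-1 site TGAGTCA, also on both strands, stood in 10.4% of the higher, 6.82% of the lower and 4.46% of all tested genes. It stood in 8.33% of the oxidative genes that rose (1 of 12) and in 8.33% of all tested oxidative members (8 of 96). Both motifs begin with TGA, and the 2 searches did not exclude each other. The 4 oxidative genes follow with Gclm, which was not called, for comparison; capitals mark the core and 10 bases stand on each side.
Txnrd1: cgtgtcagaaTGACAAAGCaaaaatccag
G6pdx: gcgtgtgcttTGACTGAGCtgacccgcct
Mafg: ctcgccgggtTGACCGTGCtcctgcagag
Srxn1: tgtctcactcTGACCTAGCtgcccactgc
Gclm: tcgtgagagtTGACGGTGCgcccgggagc
In all 5 the core reads on the strand opposite to the gene. Counted from the start site, the first base in the direction of the gene lies at -92 in Txnrd1 (chr10:82859104-82859132, minus strand), -57 in G6pdx (chrX:74428919-74428947, plus strand), -222 in Mafg (chr11:120633751-120633779, plus strand), 29 in Srxn1 (chr2:152105542-152105570, minus strand) and -134 in Gclm (chr3:122245413-122245441, minus strand). The called G6pdx and the uncalled Gclm thus both held the core. The window of Nqo1, the gene with the largest rise, held none. A match says only that these letters stand in the window.

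Single genes of retinoid handling, transport and prostanoid signalling rose. Stra6, the cell surface receptor for retinol-binding protein, on chromosome 9 at 58063793 to 58154004, read 3.36, 1.91 and 1.93 CPM in WT and 13.5, 10.6 and 15.2 CPM in KKO, 5.49-fold higher (log2 fold change 2.46 ± 0.22 SE, adjusted p = 7.89e-05). Crabp2, which carries retinoic acid in the cell, also rose (0.69), and these were the 2 calls of 11 tested retinoid genes, with 1 call left without the mixed libraries or any one of WT replicates 2 or 3 or KKO replicates 1 or 3. Slc13a3, a dicarboxylate carrier, rose by 2.24 ± 0.25 (SE, adjusted p = 0.000146) from 0.357, 0.40 and 0.357 CPM to 1.47, 1.81 and 2.09 CPM. Slc39a4, a zinc importer, went from 9.0, 8.32 and 9.39 CPM to 21.1, 18.4 and 21.9 CPM (1.2 ± 0.09 SE, adjusted p = 3.89e-06). Both carriers kept their calls in every other fit, and with Slc15a3 (1.18) and Slc25a24 (0.66) they made 4 calls among 198 tested solute carrier genes, which as a family had a median of 0.00; that is 2.02%, no more than the 2.33% of all genes. There were 7 solute carrier genes higher without KKO replicate 2, and 8 higher and 2 lower without KKO replicate 2 of 48 h. Ptgir, the prostacyclin receptor, read 4.68, 4.41 and 4.46 CPM against 10.5, 10.2 and 12.1 CPM (1.27 ± 0.09 SE, adjusted p = 1.44e-06). Ptgs2, the inducible cyclooxygenase, had 1.19 ± 0.25 (SE, adjusted p = 0.0199), a call lost without any one of WT replicates 2 or 3 or KKO replicates 1 or 3 (adjusted p up to 0.13). Trim16, a ubiquitin ligase, rose by 1.54 ± 0.16 (SE, adjusted p = 7.89e-05) and was called in every other fit.

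In the list of cholesterol and fatty acid synthesis, the genes called were fatty acid desaturases. Scd1, which makes monounsaturated fatty acids, read 8.50, 10.3 and 9.57 CPM in WT and 28.7, 17.9 and 25.9 CPM in KKO (log2 fold change 1.36 ± 0.18 SE, adjusted p = 0.00218). KKO replicate 2 was the lowest of the KKO libraries and still above WT. Fads2 (1.10), Scd2 (0.65) and Fads3 (1.29) were the other calls among 34 tested genes of cholesterol and fatty acid synthesis, whose median was 0.14 with 32 above 0. Without the mixed libraries, WT replicate 3 or KKO replicate 3, 1 gene was called. Fads2 was lost without WT replicate 3 or KKO replicate 3 (adjusted p up to 0.064), and Scd2 without any one of WT replicates 1 or 3 or KKO replicates 1 or 3 (adjusted p up to 0.098), as it was in the fit of the 24 h libraries alone. Fads3 was the least firm, lost in 12 of the 23 other fits, among them limma-voom, the 24 h libraries alone and each fit without a WT replicate or without KKO replicates 1 or 3 (adjusted p up to 0.20 without 1 library).

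The series title names glucose and glutamine metabolism. In the fit of all 12 libraries edgeR called no gene of 32 tested for glucose uptake, glycolysis and lactate export. Of the 32, 4 had an unadjusted p below 0.05, as had 1474 of all 13196 tested genes. Limma-voom called 0 of the 32 and DESeq2 2. Without KKO replicate 2 edgeR called 3, all higher. It called 1 without KKO replicate 2 of 48 h, and 1 with the 24 h libraries alone. Male share as a covariate gave 1, as did a replicate block in all libraries or in those of 24 h. The smallest p was that of the transporter Slc2a6 (0.74, adjusted p = 0.0718), followed by the inducible hexokinase Hk2 (0.24, adjusted p = 0.123), and the list's median was 0.06. Of 26 genes of glutamine uptake and glutamate enzymes edgeR, DESeq2 and limma-voom called 0, with 1 at an unadjusted p under 0.05, and the median was 0.01. The same 3 tools called 0 of 18 one-carbon enzymes (0 at an unadjusted p under 0.05), 0 of 24 tricarboxylic acid cycle genes (1), 0 of 79 nuclear respiratory chain genes (0), 0 of 77 mitochondrial ribosomal proteins (0), 0 of 81 cytosolic ribosomal proteins (0) and 0 of 11 MYC network genes (4). Amino acid transporters gave 0 of 19 (3) in the same tools. That list gave 1 without KKO replicate 2 of 48 h and 1 with male share as a covariate. The 24 h libraries alone gave 1 for it, with or without a replicate block. In the fit of all libraries other stress programs had single calls, a share near the 2.33% of all genes: Atf3 among 30 ATF4 and amino acid stress genes, Bhlhe40 among 22 hypoxia genes, and Psmd5 among 37 proteasome subunits. Without KKO replicate 2 there were 4 calls in the first list and 3 in the second; without KKO replicate 2 of 48 h the ATF4 list and the proteasome list had 2 each, and without WT replicate 1 or 3 of 48 h the hypoxia list had 2. Atf3, a stress-induced transcription factor, read 13.9, 11.5 and 13.7 CPM against 26.4, 21.0 and 30.5 CPM (1.0 ± 0.12 SE, adjusted p = 0.000629). Its call and that of Bhlhe40 (0.47) held in each other fit, while Psmd5 (0.26) lost its call without any one of the WT replicates or of KKO replicates 1 and 3 (adjusted p up to 0.18).

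**Figure D3:**
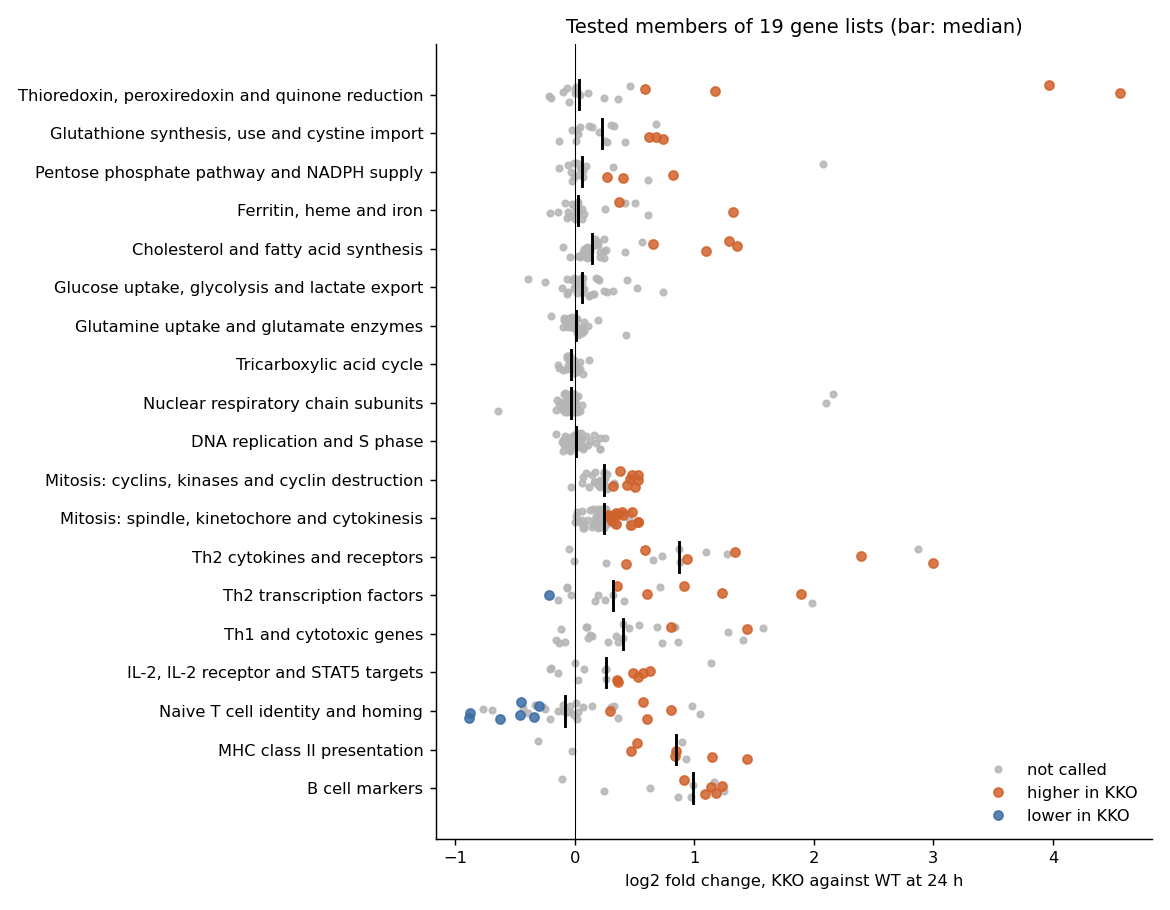
Log2 fold change at 24 h (x axis) of the tested members of 19 gene lists (y axis); grey points were not called, orange were higher and blue lower in KKO, and black bars are list medians. Glutamine, tricarboxylic acid cycle, respiratory chain and S phase lists hold no call in the fit of all 12 libraries and centre near 0, while both mitosis lists sit as a block above 0.

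Of the 89 tested genes of mitosis 21 rose. Of 30 tested cyclins, kinases and cyclin-destruction factors 8 rose, and of 59 genes of the spindle, kinetochore and cytokinesis 13 rose; none fell. The shift was small and general: both medians were 0.24 and 88 of the 89 lay above 0. One-sided lists were not confined to mitosis. Of 81 cytosolic ribosomal protein genes 2 lay above 0 (median -0.06), and of 79 nuclear respiratory chain genes 15 did (median -0.03). Ube2c, which hands ubiquitin to the complex that destroys cyclins, read 38.9, 44.5 and 45.9 CPM in WT and 63.6, 55.3 and 68.2 CPM in KKO (log2 fold change 0.53 ± 0.09 SE, adjusted p = 0.00385). Aurka, a spindle pole kinase, read 34.7, 35.8 and 37.3 CPM against 50.6, 44.1 and 53.2 CPM (0.46 ± 0.08 SE, adjusted p = 0.00437). Tpx2, which activates that kinase on the spindle, went from 80.9, 90.3 and 92.1 CPM to 124, 110 and 133 CPM (0.47 ± 0.08 SE, adjusted p = 0.00331). KKO replicate 2 was the lowest KKO library for all 3 genes. They were also the only mitotic genes of the 21 called whose calls held in each of the 23 other fits, and the only 3 called without the mixed libraries. Plk1 (0.53), Hmmr (0.53), Nusap1 (0.53), Ccnb1 (0.48), Prc1 (0.48) and Cdc20 (0.44) were called in the fit of all 12 libraries. The first list had 2 calls without any one of WT replicates 1 or 2 or KKO replicates 1 or 3, the second had 2 without KKO replicate 3 and 4 without WT replicate 2, and without KKO replicate 2 of 48 h the lists had 14 and 25. The summed level of the 89 genes was 6280, 6310 and 6550 CPM in WT and 7540, 7170 and 7990 CPM in KKO, so all KKO libraries stood above all WT libraries. Of 43 tested DNA replication genes, 0 were called by limma-voom, edgeR or DESeq2, with 3 at an unadjusted p under 0.05 and a median of 0.01, and a fit of the 24 h libraries alone called 4. Of 25 p53 targets the pro-apoptotic Bbc3 (-0.40) and Zmat3 (-0.31) fell, which is 8.0% against 2.33% of all genes. Neither call held without the mixed libraries. Bbc3 was lost without any one of the WT replicates or of KKO replicates 1 and 2 (adjusted p up to 0.15). Zmat3 was lost without any one of WT replicates 1 or 3 or KKO replicates 1 or 2. It was also lost without WT replicate 2 or 3 of 48 h (adjusted p up to 0.22 for Zmat3).

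Some genes of type 2 helper T cells (Th2) rose, while the cytokines Il4, Il5 and Il13 were not called. These cells fight parasites and drive allergy through interleukins under the control of GATA3. Of 20 listed cytokines and receptors 16 passed the low-count filter. Of these 6 rose and none fell, with a median of 0.88 (-0.00416 for all genes). A gene of low level can pass that filter through its higher group alone, so this median is not a like-for-like measure. Il4, Il9 and Il24 stood below 1 CPM in every WT library of 24 h. Ccr4, a chemokine receptor of Th2 cells, read 40.9, 32.9 and 41.5 CPM in WT and 75.8, 69.7 and 75.2 CPM in KKO (log2 fold change 0.94 ± 0.08 SE, adjusted p = 1.4e-05). Il3, a growth factor for mast cells and basophils, read 7.0, 7.15 and 7.11 CPM against 16.9, 18.4 and 18.7 CPM (1.34 ± 0.18 SE, adjusted p = 0.00172). Il9 rose from 0.464, 0.308 and 0.179 CPM to 1.82, 1.27 and 1.96 CPM (2.39 ± 0.40 SE, adjusted p = 0.00462). Il24 stood at lower levels still, 0.0714, 0.0924 and 0.179 CPM against 0.751, 0.657 and 1.45 CPM (3.0 ± 0.62 SE, adjusted p = 0.0275), and its call was lost without any one of the WT replicates or KKO replicate 3 (adjusted p up to 0.12). Il4ra (0.43) and Ccr8 (0.59) were the other calls; without the mixed libraries 3 were called, and 3 as well without any one of WT replicates 2 or 3 or KKO replicate 3. Il4ra was lost without any one of WT replicates 2 or 3 or KKO replicates 1 or 3 (adjusted p up to 0.08), and Ccr8 without any one of WT replicates 2 or 3, the KKO replicates, or the WT replicates of 48 h (adjusted p up to 0.19). The cytokines most often used to define Th2 cells were at low levels and not called: Il4 at 0.277 to 0.393 CPM in WT and 0.681 to 0.823 CPM in KKO (1.10, adjusted p = 0.26), Il5 (2.87, adjusted p = 0.0531) and Il13 (0.65, adjusted p = 0.124).

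The transcription factors of the Th2 program had 5 of 17 higher and 1 lower. Gata3 read 17.4, 15.9 and 16.7 CPM in WT and 33.1, 27.8 and 33.2 CPM in KKO (log2 fold change 0.91 ± 0.11 SE, adjusted p = 0.000369). Batf3, a partner of JUN factors, rose from 1.04, 0.339 and 0.75 CPM to 2.72, 1.97 and 3.06 CPM (1.89 ± 0.27 SE, adjusted p = 0.00144). Nfil3, a leucine zipper factor, read 5.25, 5.33 and 5.93 CPM against 13.5, 9.24 and 15.8 CPM (1.23 ± 0.19 SE, adjusted p = 0.00462). Zbtb32, a repressor that binds GATA3, had 0.60 ± 0.08 (SE, adjusted p = 0.000745). These 4 calls held in every other fit. Stat5a (0.35), which relays IL-2 signals, was lost without any one of WT replicates 2 or 3 or KKO replicate 3 (adjusted p up to 0.093). Irf4, a factor of T cell receptor strength, went the other way, from 949, 913 and 981 CPM to 824, 827 and 788 CPM (-0.22 ± 0.05 SE, adjusted p = 0.039), and lost its call without any one of the WT replicates, KKO replicates 1 or 3, WT replicate 2 of 48 h or KKO replicate 3 of 48 h (adjusted p up to 0.24).

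Among genes of IL-2 and STAT5 signalling 6 of 17 rose. Cish, a feedback inhibitor that STAT5 induces, read 123, 97.1 and 101 CPM in WT and 172, 157 and 169 CPM in KKO (log2 fold change 0.63 ± 0.08 SE, adjusted p = 0.000359). Socs1 (0.57), another such inhibitor, the survival kinase Pim1 (0.49) and the cytokine Osm (0.53) rose with it, and all 4 calls held in each other fit. Stat5a is in this list too, and Il2rb (0.36), the shared receptor chain of IL-2 and IL-15, was lost without any one of the WT replicates, KKO replicates 1 or 3, WT replicate 2 of 48 h or KKO replicate 3 of 48 h (adjusted p up to 0.20). Il2 itself read 116, 123 and 116 CPM in WT and 150, 133 and 142 CPM in KKO and was not called (0.26 ± 0.40 SE, adjusted p = 0.947); the SE, pooled over both times, is far wider than the spread of these 6 values.

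Of 25 Th1 and cytotoxic genes 2 were called, both higher, which is 8.0% against 2.33% of all genes. Gzmb, the granzyme that cytotoxic cells use to kill targets, on chromosome 14 at 56258836 to 56262334, read 83.3, 56.4 and 71.0 CPM in WT and 215, 144 and 214 CPM in KKO (log2 fold change 1.44 ± 0.16 SE, adjusted p = 0.000524). KKO replicate 2 was again the lowest of its group, and the call was lost in the fit of the 24 h libraries alone. Il12rb2 (0.80), a receptor chain for IL-12, was lost without any one of WT replicates 2 or 3, KKO replicates 1 or 3, or KKO replicates 1 or 3 of 48 h (adjusted p up to 0.14). Ifng, the defining Th1 cytokine, was not called at 34.1, 18.6 and 35.0 CPM against 50.9, 45.3 and 59.9 CPM (0.84 ± 0.35 SE, adjusted p = 0.416). None of 10 tested Th17 genes was called by edgeR or limma-voom, with 3 at an unadjusted p under 0.05 and 1 call in DESeq2, but edgeR called 2 without KKO replicate 2. Regulatory T cell genes had 2 of 18 higher, the repressor Ikzf4 (0.71), called in each other fit, and Ebi3 (0.82), a subunit of IL-27 and IL-35, which was lost without the mixed libraries (its adjusted p without any single library was at most 0.039). That count was 7 with DESeq2, 8 with the 24 h libraries alone, 4 without KKO replicate 2, 4 without KKO replicate 1 of 48 h and 7 without KKO replicate 2 of 48 h. Follicular helper genes moved both ways, with Cxcr5 (0.91) and Sh2d1a (0.58) higher and Btla (-0.31), Il6st (-0.45) and Pou2af1 (-0.43) lower among 15. Il6st kept its call in each other fit; Btla lost it without any one of WT replicates 2 or 3 or KKO replicate 1 (adjusted p up to 0.065), Pou2af1 without WT replicate 2 or 3 (up to 0.08), and all but Il6st without the mixed libraries.

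**Figure D4:**
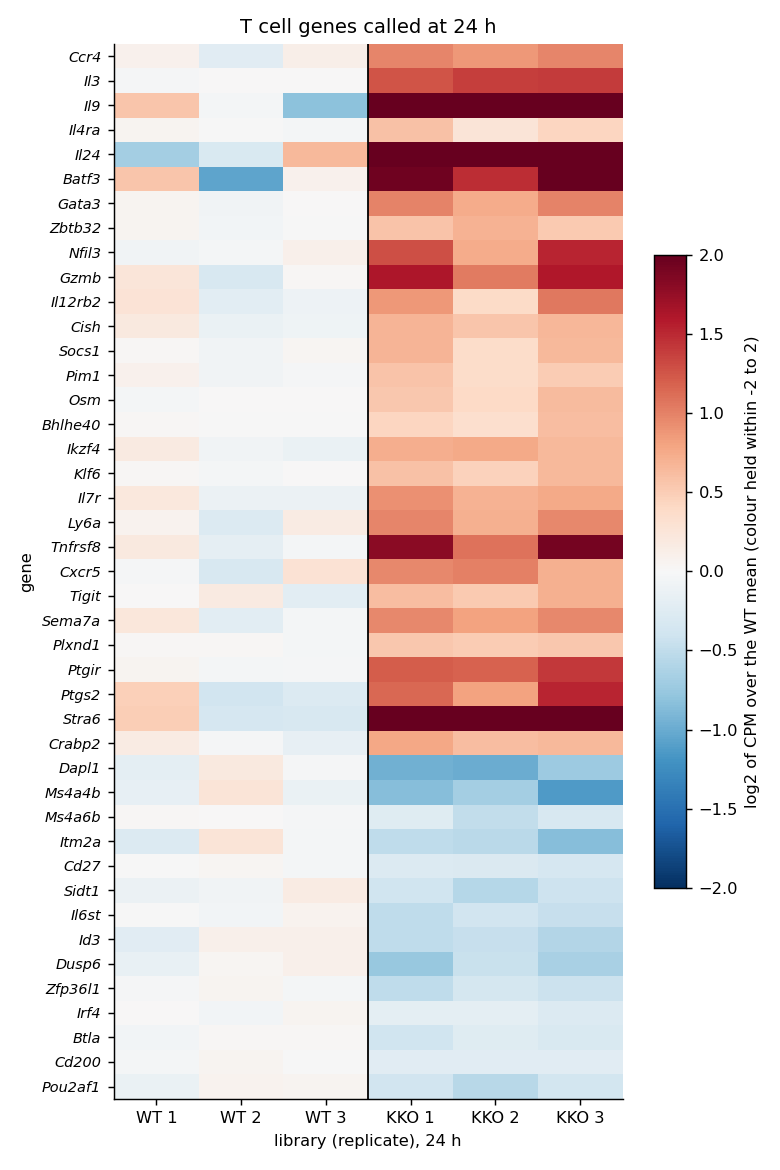
Log2 of each library's CPM over the WT mean (colour, held within -2 to 2) for 43 called T cell genes (rows) in the 3 WT and 3 KKO libraries of 24 h (columns). The 29 genes at the top are higher in all KKO libraries, often least so in KKO replicate 2, and the 14 at the bottom are lower in all KKO libraries.

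Further calls were of surface receptors and guidance molecules. Tnfrsf8 (CD30), a receptor of activated lymphocytes, read 3.36, 2.59 and 2.86 CPM in WT and 10.2, 6.24 and 11 CPM in KKO (log2 fold change 1.65 ± 0.28 SE, adjusted p = 0.0101), and was lost with limma-voom and without the mixed libraries, though no single library took the call away. Of 29 ephrin, semaphorin and plexin genes 6 rose and none fell, with a median of 0.24. Without any one of WT replicates 2 or 3 or KKO replicate 3 there were 2. Sema7a, a membrane-bound semaphorin that binds integrins, read 48.5, 35.9 and 40.4 CPM against 81.3, 72.9 and 81.2 CPM (0.92 ± 0.11 SE, adjusted p = 0.000749). The receptor Plxnd1 read 54.6, 54.7 and 52.4 CPM against 78.2, 76.7 and 78.7 CPM (0.53 ± 0.06 SE, adjusted p = 0.000213). Those 2 held in all other fits; Efna5 (3.0), on 0 to 0.143 CPM in WT and 0.452 to 0.936 CPM in KKO, was lost without any one of WT replicates 2 or 3 or KKO replicate 3 (adjusted p up to 0.071). Ly6a, a surface marker of activated T cells outside the lists and chosen after its values were seen, read 159, 125 and 170 CPM against 298, 247 and 295 CPM (0.89 ± 0.12 SE, adjusted p = 0.00118). Among 23 checkpoint and CD28 family receptors Tigit (0.61) rose and Btla (-0.31) and Cd200 (-0.22) fell. The list's median was -0.15, with 7 of 23 above 0 and 11 at an unadjusted p under 0.05. DESeq2 and the 24 h libraries alone each gave 5 lower and 1 higher. None of the 3 named genes was called without the mixed libraries. Tigit was also lost without WT replicate 3 or KKO replicate 3 (adjusted p up to 0.065). Cd200 was lost without any single library of 24 h, WT replicate 2 of 48 h or KKO replicate 3 of 48 h (up to 0.22). Other large rises outside the groups above were taken from called genes of at least 2 CPM whose groups did not overlap. Of these, Rai14 (1.88), Mef2c (1.36), Lilrb4a (1.36), Ankrd33b (1.32), Gadd45g (1.32), Frmd4b (1.31), Adam8 (1.26), Smim3 (1.23) and Anxa2 (1.11) lost their calls without the mixed libraries. Each also lost its call without at least 4 single libraries of 24 h (adjusted p up to 0.20). Dclk1 (1.30), a kinase that binds microtubules, was called in each other fit. So were Uchl1 (2.17), Nek6 (1.09), Tubb2a (1.05) and Mreg (1.04), which lie outside the rule for named genes and were chosen after their values were seen.

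The genes that fell were smaller in effect. Spin2c, a member of the spindlin family, read 6.14, 6.84 and 7.71 CPM in WT and 2.93, 3.20 and 3.28 CPM in KKO (log2 fold change -1.14 ± 0.18 SE, adjusted p = 0.00251), the largest fall after Keap1 among called genes of at least 2 CPM whose groups did not overlap. Of 36 tested genes of naive T cell identity and homing 7 fell and 4 rose, and 3 fell and 1 rose without KKO replicate 3. Dapl1, a gene of resting T cells, read 29.6, 38.6 and 33.1 CPM against 17.4, 17 and 20.5 CPM (-0.89 ± 0.13 SE, adjusted p = 0.00284). Il6st, the gp130 signalling chain of the IL-6 receptor, read 76.2, 73.5 and 80.0 CPM against 54.0, 58.8 and 55.5 CPM (-0.45 ± 0.05 SE, adjusted p = 0.000316). These and Ms4a6b (-0.34) were the naive genes that fell in each other fit. Ms4a4b (-0.88), Itm2a (-0.63), Sidt1 (-0.46) and Cd27 (-0.30) fell in the fit of all libraries and lost their calls without the mixed ones. Single libraries of 24 h also ended these calls: KKO replicate 3 for Itm2a (adjusted p = 0.057), WT replicate 2 or KKO replicates 1 or 3 for Ms4a4b (up to 0.063), WT replicates 2 or 3 or any KKO replicate for Sidt1 (up to 0.13), and any WT replicate or KKO replicates 1 or 3 for Cd27 (up to 0.15). The 4 naive-list genes that rose were Klf6 (0.57), a zinc finger factor called in each other fit, the IL-7 receptor Il7r (0.80), Satb1 (0.60) and Cnn3 (0.29). The last 3 each lost their calls without any one of WT replicates 2 or 3 or KKO replicates 1 or 3, among others (adjusted p up to 0.13, 0.16 and 0.21). Dusp6, the phosphatase that shuts off ERK, read 111, 127 and 132 CPM against 72.9, 89.9 and 78.5 CPM (-0.62 ± 0.09 SE, adjusted p = 0.00172). It was the 1 call of 21 ERK feedback genes in the fit of all libraries. That is 4.76% of the list, against 2.33% of all genes. There were 3 lower with the 24 h libraries alone and 2 without KKO replicate 2 of 48 h. Of the 21, 10 had an unadjusted p under 0.05, as had 1474 of all 13196 tested genes. Zfp36l1, an RNA-binding protein that speeds mRNA decay, read 322, 342 and 319 CPM against 231, 258 and 243 CPM (-0.42 ± 0.06 SE, adjusted p = 0.00118). It was the 1 call of 30 immediate early genes in the fit of all libraries. That is 3.33% of the list, near the 2.33% of all genes. DESeq2 called 1 higher and 4 lower, and the 24 h libraries alone gave 2 higher and 5 lower. Without KKO replicate 2 of 48 h there were 5 lower. Of the 30, 10 had an unadjusted p under 0.05. All KKO libraries lay below all WT libraries for 11 and above them for 4, against 9.46% and 9.92% of all genes. Tbc1d30 (-0.77) and Zcwpw1 (-0.47) also fell in all other fits. Rgl1 (-0.84), Adamts6 (-0.63), Sntb1 (-0.61), Evi2a (-0.60), Pacsin1 (-0.59), Igsf3 (-0.57), Tmem38b (-0.52), Id3 (-0.51) and Adarb1 (-0.50) did not keep their calls without the mixed libraries.

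Markers of other cells were read beside these groups. Of 13 tested B cell markers 5 rose, among them Blnk (1.18), Cd79a (1.14), Cd79b (1.23) and Cd22 (1.09), which encode parts of the B cell receptor and its signalling. The 12 markers other than Cd37, a gene of many leukocytes, summed to 20.5, 15.6 and 19.8 CPM in WT and 35.0, 41.9 and 30.9 CPM in KKO, with KKO replicate 2 the highest. No B cell marker was called without the mixed libraries, nor without WT replicate 2 or KKO replicate 1 alone. Of 10 genes of MHC class II presentation 6 rose, led by H2-Eb1, which read 3.5, 3.39 and 4.25 CPM against 6.01, 7.35 and 6.55 CPM (0.84 ± 0.14 SE, adjusted p = 0.00435) and was called in each other fit. The list had 1 call without WT replicate 2 and 2 without KKO replicate 3. The class II genes summed to 74.1, 74.1 and 78.0 CPM in WT and 118, 115 and 108 CPM in KKO. The invariant chain gene Cd74 (0.52), H2-Aa (0.85), H2-DMa (0.47), H2-DMb1 (1.44) and H2-DMb2 (1.15) lost their calls without the mixed libraries. Class II genes are strong in B cells and dendritic cells, and the part of such cells in these rises was not tested; in bulk RNA, more cells of a type and more RNA per cell cannot be told apart. Of 11 dendritic cell markers 4 were tested, all above 0 (median 0.43), and 1 was called, Batf3, which is also in the list of Th2 factors above; they summed to 57.1 to 65.3 CPM in WT and 65.7 to 75.1 CPM in KKO. The CD8 T cell markers Cd8a and Cd8b1 had 0 calls by edgeR, DESeq2 or limma-voom, both with an unadjusted p under 0.05 and a median of 0.48, at a summed 7.03 to 8.11 CPM in WT and 9.37 to 10.8 CPM in KKO. Natural killer and innate lymphoid markers had 1 of 11 called, Trdc (1.01), at a summed 10.1 to 13.1 CPM in WT and 15.4 to 19.6 CPM in KKO. Macrophage, granulocyte and erythroid markers had 0 calls by limma-voom, DESeq2 or edgeR among 3, 2 and 3 tested members, with 1, 0 and 0 at an unadjusted p under 0.05, and summed to 15.7 to 17.3, 0.535 to 2.00 and 2.06 to 5.79 CPM over the 6 libraries.

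The 24 h effects were then set beside those at 48 h, where 3209 genes were called (24.3% of those tested). Of the 250 genes higher at 24 h, 144 (57.6%) were also higher at 48 h and 9 were lower, and these 144 are 8.81% of the genes higher at 48 h. Of the 57 lower genes, 36 (63.2%) were lower again and 2 were higher, and these are 2.29% of the genes lower at 48 h. The difference between the times was called for 57 of the higher and 8 of the lower genes, and for 552 of all tested genes. In the oxidative group 0 of the 16 called genes had the opposite sign at 48 h. Only Srxn1 of these had a called time difference (log2 fold change 3.97 at 24 h and 2.55 at 48 h). Over all 117 tested members 4 had one, and a difference not called does not show equal effects. Of the 21 called mitotic genes 20 had the opposite sign at 48 h and 19 had a called time difference. They were picked by their 24 h values, which the time difference also uses. Over all 89 tested members 47 had a called time difference. The median of the 89 was 0.24 at 24 h and -0.20 at 48 h. Ube2c, for example, had 0.53 at 24 h and -0.22 at 48 h (adjusted p of the difference 0.00485).

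**Figure D5:**
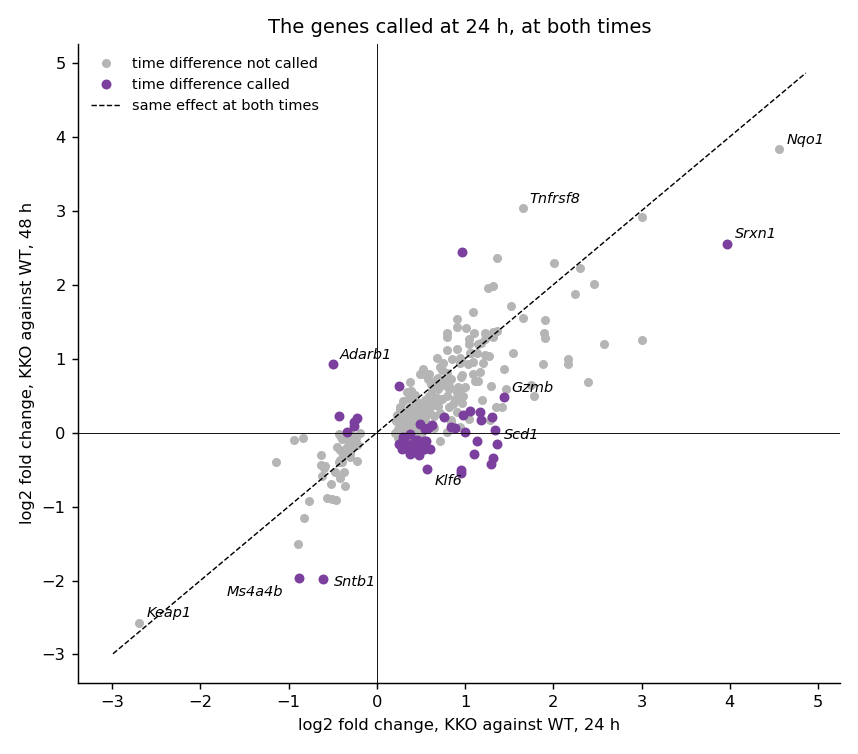
Log2 fold change of KKO against WT at 48 h (y axis) against that at 24 h (x axis) for the 307 genes called at 24 h; purple points had a called difference between the times and the dashed line marks equal effects. Most points lie in the quadrants of equal sign, and a cluster of purple points that were higher at 24 h, among them the mitotic genes, lies just below 0 at 48 h.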

How the data were processed

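RNA of 12 libraries was counted by the authors. The submitters' processing notes name FastQC, RSEM and mouse build mm10; versions and annotation are not given in the sources used here, and the design text speaks of a human reference instead. The deposited values are expected counts per gene, unnormalised; 11.9 to 12.7% of the values of a 24 h library were not whole, since RSEM shares reads among genes, so near-identical genes are uncertain. The table has 32699 symbols, of which 27 had become dates; 1 row named unknown was left out, as were 6 columns that match no sample.

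After rounding, counts went into edgeR 4.0.16 (R 4.3.3): filterByExpr on the 4 groups (13196 genes), TMM scaling, and quasi-likelihood F tests in 1 fit of all 12 libraries, 1 mean per group, 8 residual degrees of freedom. Called means an adjusted p (Benjamini-Hochberg, all tested genes) below 0.05. SE is that of the log2 fold change. CPM uses TMM-scaled sizes. The test was checked on simulated data. Named genes are Keap1, Nfe2l2, Nqo1 and Srxn1; the top 30 rises and top 20 falls by size, from called genes of at least 2 CPM with groups that do not overlap; and members of 60 gene lists from textbook knowledge (1448 tested symbols). Of these, 2 symbols are clone identifiers and are not named, and 13 list symbols had no entry. The members and lists were chosen with earlier results of these data known. Alternatives were DESeq2 1.42.0, limma-voom (limma 3.58.1), upper-quartile and RLE scaling, 2 other low-count filters, the 24 h libraries alone, a replicate block, male share as a covariate, stricter thresholds and leaving out libraries. A called gene of the B cell list is not reported here by name.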

Additional observations from a re-analysis of the deposited data

Results flagged for a closer look

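For 41 of the genes named or called in a list, the KKO effect differed between 48 h and 24 h (interaction term, edgeR adjusted p under 0.05). Values are the log2 fold change at 48 h minus that at 24 h. All 41 were called at 24 h, and those 24 h values also enter the difference. In groups of 3, single libraries were not tested for standing apart.

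Of the mitotic genes, all lower at 48 h relative to 24 h, the differences were -0.76 for Ube2c, -0.75 for Plk1, -0.71 for Nusap1, -0.70 for Cdc20, -0.69 for Ccnb1, -0.66 for Cenpe, -0.65 for Prc1, -0.64 for Hmmr and -0.60 for Tpx2. They were -0.59 for Kif20a, -0.56 for Cenpa, -0.55 for Aurka, -0.54 for Birc5, -0.53 for Kif2c, -0.51 for Kif4, -0.49 for Nek2, -0.41 for Spag5, -0.40 for Kif22 and -0.36 for Dlgap5.

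Differences were larger for the desaturase genes, at -1.71 for Fads3, -1.51 for Scd1 and -1.39 for Fads2, and for the sulfiredoxin gene Srxn1, at -1.41. Scd1 went from 1.36 at 24 h to -0.16 at 48 h, where it was not called (adjusted p = 0.47).

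Among cytokine, granule and signalling genes the difference was -1.31 for Il3, -0.96 for Gzmb, -0.53 for Cish, -0.37 for Pim1 and -0.52 for Sh2d1a. Il3 had 1.34 at 24 h and 0.04 at 48 h. Transcription factors gave -1.05 for Klf6, -0.98 for Atf3, -0.82 for Zbtb32, -0.79 for Irf5, 0.42 for Irf4 and 0.66 for the coactivator Pou2af1. Klf6 turned from 0.57 to -0.49 and Irf4 from -0.22 to 0.20, each called at both times.

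The remaining differences were -1.67 for Ankrd33b, -1.09 for Dclk1, -1.0 for Slc15a3, -0.45 for Cnn3, -1.09 for Ms4a4b, -1.38 for Sntb1 and 1.42 for Adarb1. Adarb1, an RNA-editing enzyme gene, went from -0.50 at 24 h to 0.92 at 48 h. Sntb1 and Ms4a4b fell at 24 h (-0.61 and -0.88) and further at 48 h (-1.98 and -1.97).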

How the results depend on the processing

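None of the 307 genes called at 24 h changed direction under any alternative in which it was tested. Named genes that were not called were not followed for direction. The main count of 307 genes called at 24 h was 488 with DESeq2 (113 lower), 524 with the 24 h libraries alone (149 lower), 456 with male share as a covariate (123 lower), and 107 without the mixed-sex libraries (88 higher, 19 lower). An adjusted p under 0.01 left 128 (108 higher, 20 lower), and a fold change of at least 2 left 71 (69 higher, 2 lower). Leaving out each library gave 131 to 504 calls, 109 to 372 higher and 22 to 132 lower; fits that leave a library out estimate the spread from fewer samples. RLE scaling gave 309 calls, upper-quartile scaling 313, limma-voom 284, no low-count filter 287 and a filter at 1 CPM in 6 libraries 332. With the replicate block 322 genes were called, and 339 with the block in the 24 h libraries alone. Same-numbered WT and KKO libraries correlated at -0.317, -0.003 and 0.224 in their deviations from the group means. Deviations within a group of 3 are tied to each other, and the libraries also differ in sex reading. These values therefore cannot settle whether same-numbered libraries were paired. Between the times the sex readings of KKO replicates 1 and 3 exchanged: replicate 1 was mixed at 24 h and held Y-linked transcripts alone at 48 h, and replicate 3 the reverse, so a block over both times may join libraries of different source. The share of higher among called genes ran from 71.6% with the 24 h libraries alone to 97.2% at 2-fold, against 81.4%; both scaling alternatives were within 10 points of it. With 3 libraries a group, 23700071 to 32607684 counts each at 24 h, depth limits genes of few counts most.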
